A study of Mus musculus with 30 samples.

Results

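The kidneys of 10 mice were divided by their own level of Arntl, the gene for the clock activator BMAL1, and the genes that differed between the 2 sets of kidneys were described, with attention to transport and hormone response. The mice were chosen by their kidney Arntl signal on these arrays. Arntl-high kidneys came from the 4 mice whose value lay above the mean of all 10, namely mottled 1, mottled 2, heavily mottled 1 and slightly mottled 2. Arntl-low kidneys came from the other 6 mice, namely yellow 1, yellow 2, slightly mottled 1, heavily mottled 2, pseudoagouti 1 and pseudoagouti 2. These 10 kidney arrays are part of 30 arrays of kidney, liver and brain. All mice were males of the genotype Avy/a, in which the viable yellow allele of agouti is carried over the a allele, and all tissues were taken on day 22, at weaning. They came from a long sibling-mated colony in which Avy, which arose in the C3H/HeJ strain, was kept heterozygous, and they ate freely. The coat of such mice varies between yellow and pseudoagouti although their genotype is the same. The mice were sampled as 2 mice in each of 5 coat colour classes, and the study looked for genes that vary between individuals and vary alike across tissues. The time of day, litter and array batch are not given in the sources used here, so the Arntl sets are not a treatment and not a known time of sampling.

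Each array was an Affymetrix Mouse Genome 430 2.0 array, and each value is the authors' MAS5 signal, a linear intensity for 1 probe set. Signals are printed as deposited, and differences are on the scale of log2(signal + 16), which understates changes of dim probe sets. A gene stands by its probe set with the highest kidney mean. Probe sets with a kidney mean below the median of all, a signal of 125, were not tested, which left 22519 probe sets and 11543 genes.

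The circadian clock is a feedback loop that runs in most cells. BMAL1 pairs with CLOCK or NPAS2 and drives genes that carry E-box sequences, among them the Per, Cry and Nr1d genes. PER and CRY proteins then restrain this pair, and REV-ERB proteins, the products of Nr1d1 and Nr1d2, repress Arntl and Npas2. Arntl therefore peaks at about the opposite time of day to many, but not all, of these targets. In the kidney the clock is known to reach sodium, water and acid handling, partly through the clock output factors DBP, TEF and HLF and partly through daily surges of glucocorticoid hormone.

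The rule used the kidney Arntl values themselves, so they are given as a description. Arntl had signals of 501, 570, 546 and 457 in the Arntl-high kidneys of mottled 1, mottled 2, heavily mottled 1 and slightly mottled 2, against 109 to 229 with a median of 185 in the 6 Arntl-low kidneys. The difference was 1.52 ± 0.21 on the log2 scale (SE, n = 4 and 6). The dimmest Arntl-high kidney, slightly mottled 2, was at 8.88 and the brightest Arntl-low kidney, pseudoagouti 2, at 7.94, either side of the mean of 8.15. A dimmer probe set for Arntl did not separate the sets, with a difference of −0.05. Because every kidney gene was measured on the arrays that set the groups, the kidney differences below carry no test. A kidney probe set is called different where the 2 sets did not overlap and the difference was at least 0.5 on the log2 scale.

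By this rule 75 of 22519 probe sets were called, 0.333%, of which 29 (0.129%) were higher and 46 (0.204%) lower in Arntl-high kidneys. With no minimum difference 222 kept the sets apart, 0.986%. Counting genes by their standing probe set, 46 of 11543 were called, 0.399%, with 20 higher (0.173%) and 26 lower (0.225%). Arntl, whose values set the groups, was called by construction. Among the other 14 measured clock and clock output genes, 3 were called, 21.4%. Among 11 genes known to be rhythmic in many tissues, 2 were called, 18.2%. Among 229 measured genes of kidney transport, hormone response and metabolism, 2 were called, 0.873%, and 34 differed by at least 0.5 in size, overlapping or not, against 455, or 3.94%, of all 11543 genes. Their median difference was −0.07, against −0.01 over all genes tested. Of the 229 genes, 145 lay below 0, against 5928, or 51.4%, of all 11543 genes. Some genes stand in more than 1 list, such as Tsc22d3 among sodium transport regulators and glucocorticoid response genes, so the lists are not separate evidence. The number of called probe sets depended on single mice. It was 678 without heavily mottled 1, 325 without slightly mottled 2, 144 without pseudoagouti 2, 138 without slightly mottled 1, 132 without heavily mottled 2 and 119 without mottled 2.

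Npas2, which encodes an alternative partner of BMAL1, was higher where Arntl was. Npas2 had signals of 244, 196, 144 and 139 in the Arntl-high kidneys, in the same mouse order as for Arntl, against 12.5 to 73.9 with a median of 47.0 in Arntl-low kidneys. The sets did not overlap and differed by 1.77, but Npas2 was too dim to enter the count. Clock, the other partner, overlapped between the sets, with 811 to 952 in Arntl-high kidneys and 537 to 935 in Arntl-low kidneys, a difference of 0.35 ± 0.15 (SE). Rora, an activator of Arntl, differed by −0.42 ± 0.20 (SE), also with overlap.

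The repressors of the loop lay on the other side. All 9 measured members had a difference below 0, with a median of −0.74, and 2 of them, Per3 and Nr1d2, were called. Per3 had signals of 364, 352, 228 and 521 in Arntl-high kidneys, against 620 to 837 with a median of 686 in Arntl-low kidneys, a difference of −0.95 ± 0.19 (SE). Nr1d2, which encodes REV-ERB beta, had 3733, 3675, 4534 and 3912 in Arntl-high kidneys, against 5399 to 7862 with a median of 7077 in Arntl-low kidneys, a difference of −0.74 ± 0.15 (SE). No Arntl-high kidney reached an Arntl-low kidney at the standing probe set of either gene. The other 3 measured Per3 probe sets overlapped, with differences from −1.11 to −0.46. A dimmer Nr1d2 probe set was at −0.57 and was not called.

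By its standing probe set Per2 had the largest difference of the repressors, −1.85 ± 0.36 (SE), and was not called. A dimmer Per2 probe set that passed the signal limit also overlapped, at −0.53. The signals of the standing Per2 probe set were 197, 142, 169 and 783 in Arntl-high kidneys. They were 688 to 1115 with a median of 999 in Arntl-low kidneys. The mouse slightly mottled 2 had an Arntl-high level of Arntl and an Arntl-low level of Per2, while the other 3 Arntl-high kidneys were far below every Arntl-low kidney. The same mouse stood among the Arntl-low kidneys at Per1 and Ciart. Per1 had 274, 466, 154 and 1254 in Arntl-high kidneys, against 642 to 1491 with a median of 774 in Arntl-low kidneys. Ciart, which encodes a repressor of the BMAL1 complex, had 148, 128, 146 and 290 in Arntl-high kidneys, against 196 to 398 with a median of 353 in Arntl-low kidneys.

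Nr1d1, which encodes REV-ERB alpha, overlapped because of another mouse. It had 371, 245, 903 and 296 in Arntl-high kidneys, against 431 to 688 with a median of 526 in Arntl-low kidneys. Heavily mottled 1 had the highest Nr1d1 of all 10 kidneys, and the other 3 Arntl-high kidneys were the lowest. The Nr1d1 difference was −0.44 ± 0.29 (SE), and −0.82 without heavily mottled 1. It was 0.25 among mice numbered 1 and −1.12 among mice numbered 2. Cry1, Cry2 and Bhlhe40 differed by −0.59, −0.55 and −0.25, all with overlap. Bhlhe41, Npas2 and Nfil3 were the clock genes below the signal limit.

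The output factors carry the rhythm to other genes by binding D-box sequences. Dbp was called, with signals of 2336, 1607, 1589 and 1538 in Arntl-high kidneys, against 2760 to 5688 with a median of 4994 in Arntl-low kidneys, a difference of −1.36 ± 0.21 (SE). A dimmer Dbp probe set was also called, at −1.93. Tef differed by −0.79 ± 0.21 (SE) and Hlf by −0.38 ± 0.15 (SE), each with overlap. Tef had 2289, 1674, 3196 and 2777 in Arntl-high kidneys, against 3143 to 5341 in Arntl-low kidneys, so heavily mottled 1 alone entered the Arntl-low range. Nfil3, which encodes a repressor that competes with these factors at D-boxes, had 71.0, 111, 138 and 262 in Arntl-high kidneys, against 49.9 to 87.2 in Arntl-low kidneys, with mottled 1 inside the Arntl-low range.

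**Figure D1:**
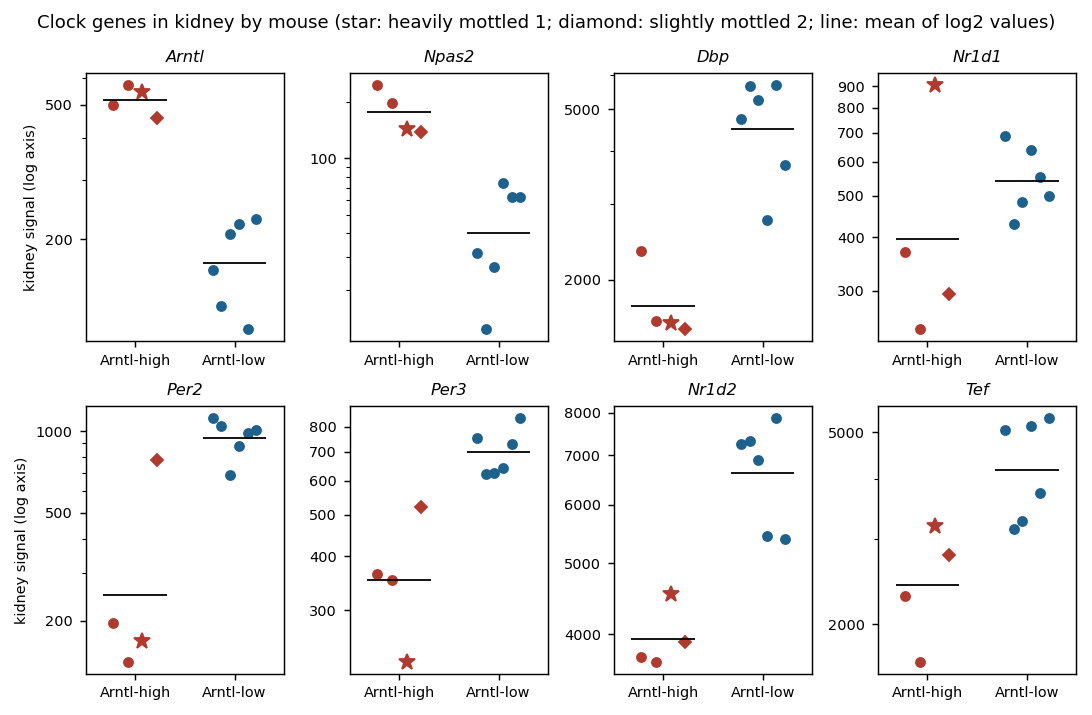
Kidney MAS5 signal on a log axis for 8 clock genes, with Arntl-high mice on the left (n = 4, red) and Arntl-low mice on the right (n = 6, blue); each point is a mouse, the star is heavily mottled 1, the diamond is slightly mottled 2 and the line is the mean of log2 values. Arntl, Npas2, Dbp, Per3 and Nr1d2 do not overlap, slightly mottled 2 joins the Arntl-low mice at Per2, and heavily mottled 1 is highest of all at Nr1d1.

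The promoter windows of the genes were searched for sequences that the clock factors are known to bind. The windows reach from 250 bases before to 50 after the start site, and the sequences are those of RefSeq on GRCm38.p6. Both strands were searched for the E-box CACGTG, which reads alike on both strands, for the D-box TTATGTAA (TTACATAA on the other strand) and for TAGGTCA, which the other strand shows as TGACCTA, the core of the element bound by REV-ERB and ROR proteins and called here the RORE core. None of these motifs contains another. Stretches are shown in the direction of the gene, with the matches in capitals, for Arntl and Nfil3, with differences above 0, for Per3 and Ciart, with differences below 0, and for Tspan4 and Slc16a1, the list members outside the clock that were called and hold an E-box.
Arntl, RORE core, chr7:113207531-113207557, + strand: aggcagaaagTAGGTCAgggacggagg
Nfil3, RORE core, chr13:52981040-52981111, − strand: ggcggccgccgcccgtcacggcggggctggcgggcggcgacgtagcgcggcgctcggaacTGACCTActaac
Per3, D-box, chr4:151044756-151044915, − strand: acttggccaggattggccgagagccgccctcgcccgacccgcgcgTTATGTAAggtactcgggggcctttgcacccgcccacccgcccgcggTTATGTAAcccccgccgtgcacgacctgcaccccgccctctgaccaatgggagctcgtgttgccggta
Ciart, E-box, chr3:95882229-95882404, − strand: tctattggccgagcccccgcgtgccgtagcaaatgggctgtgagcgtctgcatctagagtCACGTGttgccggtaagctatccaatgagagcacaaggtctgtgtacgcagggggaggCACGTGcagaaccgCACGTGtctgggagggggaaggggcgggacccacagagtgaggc
Tspan4, E-box, chr7:141476269-141476379, + strand: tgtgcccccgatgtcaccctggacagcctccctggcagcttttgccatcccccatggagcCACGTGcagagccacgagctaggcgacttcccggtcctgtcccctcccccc
Slc16a1, E-box, chr3:104638414-104638529, + strand: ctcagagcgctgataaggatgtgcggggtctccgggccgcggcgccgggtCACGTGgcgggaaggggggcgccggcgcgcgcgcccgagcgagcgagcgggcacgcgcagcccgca

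Of the 18 clock and output genes, 16 had a window. An E-box was found in 5 of these 16 genes (Bhlhe41, Ciart, Cry1, Per1 and Tef), against 11.9% of the 9360 genes tested in kidney that had a window. Ciart held 3 E-boxes. Among the clock genes a D-box was found only in Per3, which held 2, against 0.63% of the tested genes. The RORE core was found in Arntl and Nfil3, against 2.39% of the tested genes. The other 8 clock genes with a window held none of these motifs. Outside the clock, genes called by any of their probe sets were searched. E-boxes were found in 2 of 20 genes with a window that were called higher (Rhobtb1 and Slc16a1), 10.0%. They were found in 3 of 28 that were called lower (Ak4, Lfng and Tspan4), 10.7%. Both shares were close to the 11.9% of the tested genes. A D-box was found in Ms4a7, called higher, and the RORE core in Glul, called lower. A match is a run of letters and not a measured binding site.

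Genes known to be rhythmic in many tissues lay mostly on the side of the repressors. Of 11 measured members, 9 had a difference below 0, with a median of −0.42. Tspan4, which encodes a tetraspanin of the cell surface, had 925, 982, 873 and 1126 in Arntl-high kidneys, against 1659 to 2352 with a median of 1935 in Arntl-low kidneys, a difference of −1.0 ± 0.13 (SE). Usp2, which encodes a deubiquitinase, had 2359, 1992, 2325 and 3742 in Arntl-high kidneys, against 3917 to 4535 with a median of 4056 in Arntl-low kidneys, a difference of −0.70 ± 0.16 (SE). Both were called, and at Usp2 slightly mottled 2 lay just under the Arntl-low range. A dimmer Usp2 probe set overlapped, at −0.59. Coq10b, of coenzyme Q biology, differed by −0.77 ± 0.23 (SE), Herpud1, of endoplasmic reticulum stress, by −0.52 ± 0.25 (SE), and Wee1, a mitotic kinase gene, by −0.51 ± 0.26 (SE), all with overlap. Wee1 was −0.18 without heavily mottled 1.

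Salt transport itself showed no called gene. Of 14 measured genes of sodium transport, 11 lay below 0, with a median of −0.12 and a range from −0.53 to 0.12. Scnn1a, which encodes the alpha subunit of the epithelial sodium channel, was at the low end. It had 1198, 1059, 975 and 1559 in Arntl-high kidneys, against 1099 to 2530 with a median of 1769 in Arntl-low kidneys, a difference of −0.53 ± 0.22 (SE). The other channel subunits, Scnn1b and Scnn1g, differed by −0.13 and −0.05. The loop and distal cotransporters Slc12a1 and Slc12a3 differed by −0.18 and −0.26. Atp1b1, of the sodium pump, differed by −0.32 ± 0.28 (SE). The sodium-proton exchanger gene Slc9a8 had 1237 in heavily mottled 1 and 139 to 390 in the other 9 kidneys, a difference of 0.12 between the sets and −0.53 without that mouse.

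Among 12 measured regulators of sodium transport, 10 lay below 0 with a median of −0.18, and none was called. Tsc22d3, which encodes the glucocorticoid-induced protein GILZ, had 1193, 1683, 978 and 4512 in Arntl-high kidneys, against 2339 to 6324 with a median of 4049 in Arntl-low kidneys, a difference of −1.14 ± 0.39 (SE). Sgk1, a kinase gene through which aldosterone raises sodium uptake, had 5933, 10274, 3867 and 10344 in Arntl-high kidneys, against 10108 to 12219 with a median of 10963 in Arntl-low kidneys, a difference of −0.66 ± 0.24 (SE). The Sgk1 difference lay in the 2 Arntl-high kidneys numbered 1. It was −1.28 among mice numbered 1 and −0.04 among mice numbered 2. Stk39, which encodes the kinase SPAK, was lowest in heavily mottled 1, at 219, against 533 to 612 in the other Arntl-high kidneys and 456 to 752 in Arntl-low kidneys.

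Water and urea transport had 11 measured members, a median difference of −0.01 and none called. Aqp7, a glycerol and water channel gene of the proximal tubule, differed by 0.55 ± 0.22 (SE). Aqp1, the water channel of the proximal tubule, had 7434, 7392, 12255 and 7616 in Arntl-high kidneys, against 8173 to 12557 in Arntl-low kidneys, so 3 Arntl-high kidneys lay below every Arntl-low kidney and heavily mottled 1 lay among them. Its difference was −0.30 ± 0.18 (SE), and −0.48 without heavily mottled 1. Aqp2, the vasopressin-regulated channel of the collecting duct, had 4170 to 6495 in Arntl-high kidneys, inside the 2781 to 9964 of Arntl-low kidneys. Potassium, chloride and acid-base transport had 16 measured members, a median of −0.12 and none called, with Atp6v1b1, of the proton pump, at −0.50 ± 0.23 (SE) and Slc4a1, the anion exchanger, at 0.40 ± 0.29 (SE).

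In the transport lists only 1 gene was called. Over all transport, hormone and metabolic lists 2 of 229 genes were called, 0.873%, against 0.399% of all genes. In the list of amino acid, sugar and monocarboxylate transport, 1 of 26 members was called, with a list median of −0.05. This member was Slc16a1, which encodes the lactate and ketone body carrier MCT1. It had 2179, 1613, 1449 and 2166 in Arntl-high kidneys, against 827 to 1422 with a median of 1041 in Arntl-low kidneys, a difference of 0.76 ± 0.17 (SE). Heavily mottled 1 was the lowest of the Arntl-high kidneys and heavily mottled 2 the highest of the Arntl-low ones, and the gap between them was small. Outside the lists, Rhcg, which encodes the ammonia channel of the collecting duct, was lower in Arntl-high kidneys, with 920, 668, 963 and 1035, against 1272 to 1907 with a median of 1371 in Arntl-low kidneys. The Rhcg difference was −0.71 ± 0.16 (SE), −0.66 among mice numbered 1 and −0.76 among mice numbered 2. Slc7a5, which encodes the large neutral amino acid carrier LAT1, was dim and lower, with 131, 134, 75.9 and 134 in Arntl-high kidneys, against 139 to 282 in Arntl-low kidneys. Its mean in Arntl-high kidneys was below the signal limit, so it was tested because of its level in Arntl-low kidneys. Rhcg and Slc7a5 were in no list and were named from rankings of the values themselves.

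Slc2a9, a urate carrier gene, differed by −0.65 ± 0.22 (SE), the betaine carrier gene Slc6a12 by −0.62 ± 0.35 (SE) and the amino acid carrier gene Slc38a2 by −0.55 ± 0.23 (SE), all with overlap. The list of calcium, phosphate and vitamin D handling had 14 measured members, a median of −0.15 and none called. Cyp27b1, which encodes the enzyme that makes active vitamin D, differed by −1.06 ± 0.56 (SE), but this was 0.05 among mice numbered 1 and −2.17 among mice numbered 2. Its signals were 364, 195, 271 and 542 in Arntl-high kidneys, against 255 to 2296 in Arntl-low kidneys.

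The glucocorticoid response list leaned lower in Arntl-high kidneys. Of 22 measured members, 18 lay below 0, with a median of −0.41 against −0.01 over all genes tested, and 1 was called. It was Glul, which encodes glutamine synthetase, with 7683, 9504, 7972 and 8243 in Arntl-high kidneys, against 11608 to 14201 with a median of 12135 in Arntl-low kidneys. Its difference was −0.59 ± 0.13 (SE), and a dimmer Glul probe set was also called, at −0.69. Other textbook targets of the hormone overlapped. Fkbp5, which encodes a chaperone of the hormone receptor, had 653, 563, 687 and 1734 in Arntl-high kidneys, against 646 to 3233 with a median of 1685 in Arntl-low kidneys, a difference of −0.97 ± 0.44 (SE).

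Zbtb16, which encodes a transcription factor induced by glucocorticoid, had 158, 179, 146 and 1641 in Arntl-high kidneys, against 58.3 to 2774 with a median of 1080 in Arntl-low kidneys. Its 4 highest kidneys were all of mice numbered 2, from both Arntl sets, and mottled 2 was the only kidney numbered 2 with a low value. The Zbtb16 difference was −0.11 among mice numbered 1 and −2.0 among mice numbered 2. Slightly mottled 2 had the highest Fkbp5, Tsc22d3, Per1 and Zbtb16 of the Arntl-high kidneys. Sult1a1, a sulfotransferase gene, differed by −1.0 ± 0.33 (SE), and Pck1, the key enzyme gene of glucose synthesis, by −0.64 ± 0.22 (SE), both with overlap. Bcl6, which encodes a transcriptional repressor, went the other way, at 1.08 ± 0.33 (SE). It had 1622, 818, 2268 and 1313 in Arntl-high kidneys, against 324 to 1094 with a median of 713 in Arntl-low kidneys, and mottled 2 overlapped. The Bcl6 difference was 1.82 among mice numbered 1 and 0.34 among mice numbered 2. A dimmer Bcl6 probe set overlapped, at 0.58, and was at 0.17 without heavily mottled 1.

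**Figure D2:**
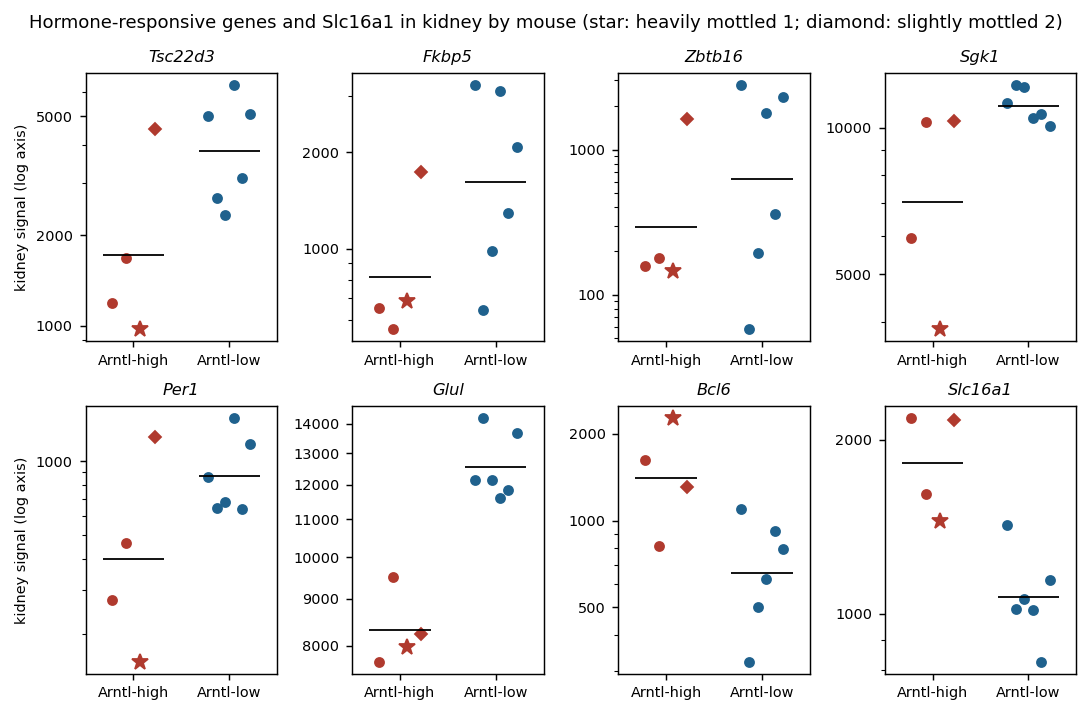
Kidney MAS5 signal on a log axis for 6 glucocorticoid-related genes, Sgk1 among them, and for Bcl6 and Slc16a1, with Arntl-high mice on the left (n = 4) and Arntl-low mice on the right (n = 6); symbols as for the clock genes, and the line is the mean of log2 values. Glul and Slc16a1 do not overlap, while slightly mottled 2 (diamond) lies among the Arntl-low mice at Tsc22d3, Fkbp5, Zbtb16 and Per1. At Fkbp5 and Zbtb16 other Arntl-high mice lie in the Arntl-low range too.

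Other hormone systems held no called member of their lists. Renin-angiotensin and vasoactive genes had 10 measured members and a median of −0.08. Npr3, which encodes the clearance receptor of natriuretic peptides, differed by 0.65 ± 0.19 (SE), with 241 to 408 in Arntl-high kidneys and 166 to 288 in Arntl-low kidneys. Anpep, which encodes the peptidase that trims angiotensin peptides, differed by −0.64 ± 0.21 (SE), and Ace, which encodes the converting enzyme, by −0.47 ± 0.21 (SE). The growth hormone and IGF list had 13 measured members and a median of −0.02, with Igfbp1, a fasting-responsive binding protein gene, at 1.04 ± 0.49 (SE). The Igfbp1 difference was 2.33 among mice numbered 1 and −0.25 among mice numbered 2. Dio1, which encodes the enzyme that activates thyroid hormone, differed by −0.55 ± 0.23 (SE).

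The glucagon receptor gene Gcgr, which was in no list, did separate the sets. It had 99.9, 113, 114 and 89.8 in Arntl-high kidneys, against 149 to 291 with a median of 234 in Arntl-low kidneys, a difference of −1.01 ± 0.20 (SE). The difference was −1.01 among mice numbered 1 and −1.02 among mice numbered 2. All 4 Arntl-high kidneys were below the signal limit at this gene, so it was tested because of its level in Arntl-low kidneys.

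The remaining lists also held no called member. The fasting and PPAR alpha list (17 measured, median 0.02), drug metabolism (14 measured, median 0.07), temperature and heat shock (15 measured, median −0.16), immediate early genes (11 measured, median −0.12) and cell cycle (11 measured, median 0.04) overlapped at every member. Hspb1, a small heat shock protein gene, differed by −0.79 ± 0.27 (SE). The immediate early genes Egr1 and Fos differed by 0.76 ± 0.29 and 0.75 ± 0.25 (SE).

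**Figure D3:**
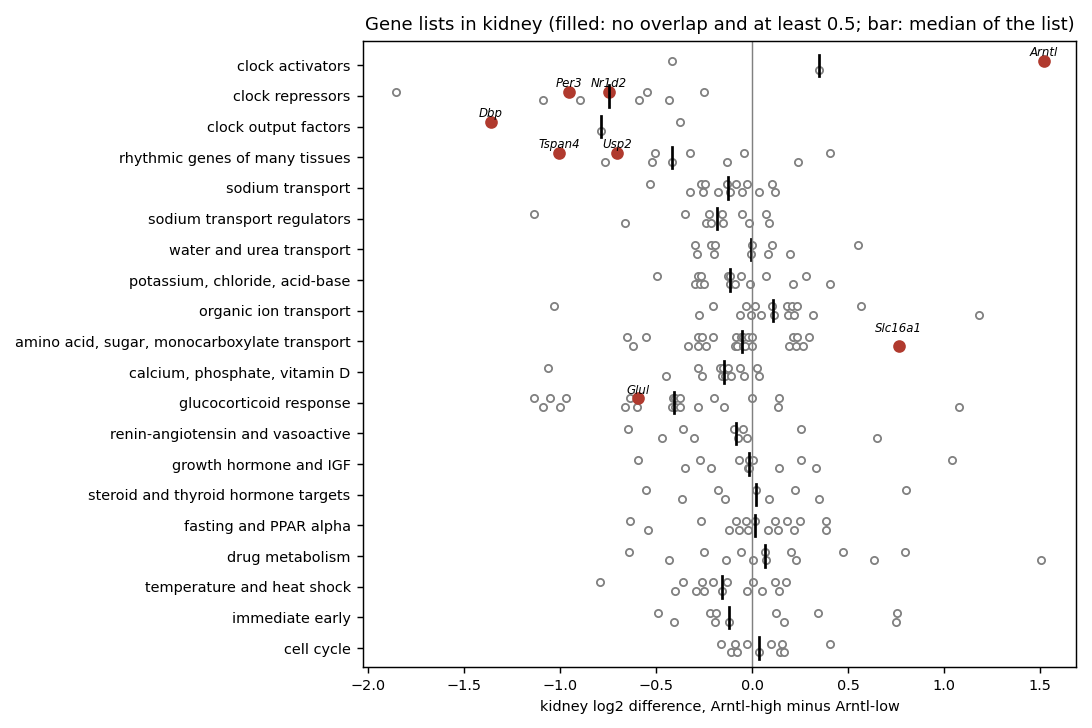
Kidney log2 difference of Arntl-high minus Arntl-low mice for each measured member of 20 gene lists, where each circle is a gene, the bar is the median of the list and filled circles are genes whose sets did not overlap and differed by at least 0.5. The clock repressors, clock output factors, rhythmic genes and glucocorticoid list have medians of −0.74, −0.79, −0.42 and −0.41, and beyond the clock and rhythmic lists only Slc16a1 and Glul are filled.

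Among genes called higher outside the lists, the largest difference was that of Timd2, which encodes a cell surface receptor of the TIM family. Timd2 had 472, 322, 741 and 248 in Arntl-high kidneys, against 96.7 to 212 with a median of 132 in Arntl-low kidneys, a difference of 1.47 ± 0.29 (SE). The Timd2 difference was 2.31 among mice numbered 1 and 0.63 among mice numbered 2. The probe set can match several transcripts, and a dimmer Timd2 probe set overlapped, at 0.71. Without heavily mottled 1 that dimmer probe set was at −0.01. Gbp6, an interferon-inducible GTPase gene, had 467, 439, 406 and 402 in Arntl-high kidneys, against 174 to 300 with a median of 209 in Arntl-low kidneys, a difference of 0.91 ± 0.17 (SE). Egln3, which encodes an oxygen-sensing prolyl hydroxylase, had 570, 584, 557 and 454 in Arntl-high kidneys, against 284 to 428 in Arntl-low kidneys, a difference of 0.64 ± 0.16 (SE).

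9630013D21Rik, Chst7, Proz, Ggact, Tstd2, Get1 and Ms4a7 completed the 12 largest, with differences from 0.63 to 0.97. Chst7 encodes a sulfotransferase of chondroitin chains, and its difference was 1.49 among mice numbered 1 and 0.30 among mice numbered 2. Without heavily mottled 1, which had 442, Chst7 was below the signal limit. So was 9630013D21Rik, which had 149 to 327 in Arntl-high kidneys and 56.9 to 145 in Arntl-low kidneys, and which was therefore tested because of its level in Arntl-high kidneys.

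Among genes called lower, Serpina6 had the largest difference, −2.77 ± 1.23 (SE), through a single kidney. Serpina6 encodes the globulin that carries glucocorticoid in plasma. It had 7396, 14378, 28.2 and 11923 in Arntl-high kidneys, against 14431 to 23944 with a median of 17930 in Arntl-low kidneys. Heavily mottled 1 was far below every other kidney, although its liver had 10927. Without it the Serpina6 difference was −0.79.

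Cbr1, a carbonyl reductase gene, had 3274, 5950, 1696 and 5360 in Arntl-high kidneys, against 6724 to 8519 in Arntl-low kidneys, a difference of −1.04 ± 0.28 (SE), and −0.68 without heavily mottled 1. Lfng, which encodes a glycosyltransferase acting on Notch receptors, had 280, 356, 310 and 501 in Arntl-high kidneys, against 616 to 948 with a median of 632 in Arntl-low kidneys, a difference of −0.99 ± 0.19 (SE). Rtkn differed by −0.84 ± 0.17 (SE), Nt5dc2 by −0.88 ± 0.18 (SE) and Prrc2a by −0.86 ± 0.22 (SE), all without overlap. Eln and Actn1 had a called probe set each, at −1.99 and −1.08, but their brightest probe sets overlapped, at −0.37 and −0.19. The called Eln probe set had 38.8 to 58.1 in Arntl-high kidneys and 70.7 to 581 in Arntl-low kidneys, so like Gcgr it was tested because of its level in Arntl-low kidneys. Both were named with their values in view.

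The kidney of heavily mottled 1 stood apart beyond the clock. It lay at least 1 log2 unit above all other 9 kidneys at 58 tested probe sets and as far below them at 70. The other 9 kidneys had 0 to 19 such probe sets above and 6 to 52 below. The genes of this paragraph were picked with their values in view. Slc22a7, an organic anion carrier gene of the proximal tubule, had 5368 in heavily mottled 1 and 281 to 811 in the other 9 kidneys. Cyp7b1, which encodes an oxysterol hydroxylase, had 1340 there and 158 to 316 elsewhere, and Acsm3, a fatty acid ligase gene, lay 3.55 log2 units above the next kidney.

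The kidney of mottled 1, also Arntl-high, was next in order at several such genes. Slc22a30, of the same carrier family, had 4104, 956, 7147 and 1312 in Arntl-high kidneys, against 863 to 1638 in Arntl-low kidneys. Ces1f, a carboxylesterase gene, had 4565, 586, 13885 and 204 in Arntl-high kidneys, against 412 to 1410 in Arntl-low kidneys, and Cyp4b1, a cytochrome P450 gene, had 10055, 1017, 27297 and 985, against 1215 to 6632. Akr1c21, a steroid dehydrogenase gene, had 14044, 5800, 29524 and 1828 in Arntl-high kidneys, against 3292 to 7059 in Arntl-low kidneys. The Ces1f difference was 4.05 among mice numbered 1 and −1.04 among mice numbered 2, and that of Cyp4b1 was 3.15 among mice numbered 1 and −1.88 among mice numbered 2. In the other direction, Abcc3, which encodes an efflux pump of conjugates, had 150 in heavily mottled 1 against 678 to 737 in the other Arntl-high kidneys and 696 to 1347 in Arntl-low kidneys. Organic ion transport as a list had 18 measured members, none called and a median of 0.11.

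**Figure D4:**
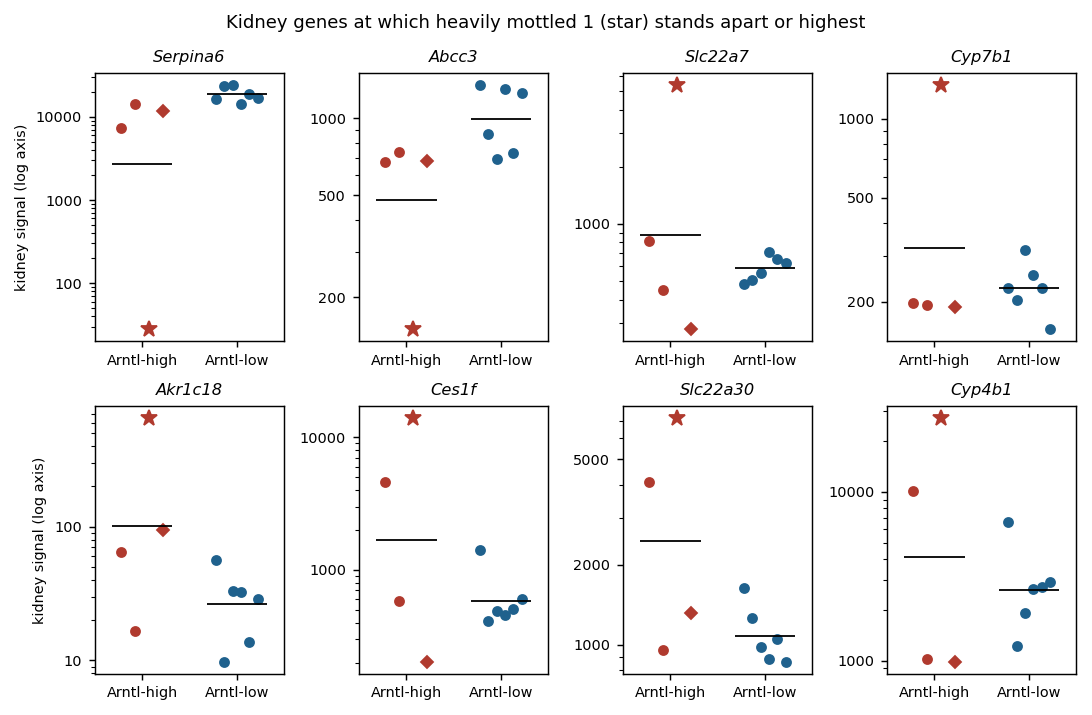
Kidney MAS5 signal on a log axis for 8 genes at which heavily mottled 1 (star) was lowest or highest, with Arntl-high mice on the left (n = 4) and Arntl-low mice on the right (n = 6); other symbols as for the clock genes, and the line is the mean of log2 values. Serpina6 was at 28.2 in heavily mottled 1 and at 7396 or more in the other 9 kidneys, and mottled 1 was next to it at Ces1f, Slc22a30 and Cyp4b1.

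Markers of kidney cells were above the signal limit in every kidney and lay mostly a little lower in Arntl-high kidneys. All 7 markers of the thick ascending limb and distal tubule had a difference below 0 (median −0.18), as did all 8 of glomerulus and endothelium (median −0.24), 8 of 9 of the proximal tubule (median −0.18) and 7 of 9 of the collecting duct (median −0.23). None was called, and these medians were at least as large in size as the −0.12 of the sodium and of the potassium, chloride and acid-base transport lists. The marker lists share genes with the other lists, so the medians are not independent of each other. Slc12a1, Slc12a3, Scnn1g, Atp6v1b1 and Slc4a1 are markers that were also given above under transport, and Pck1 under glucocorticoid response. Slc34a1, the phosphate carrier gene of the proximal tubule, had 13216 to 28909 in Arntl-high kidneys and 14949 to 25139 in Arntl-low kidneys, and Umod, of the thick ascending limb, had 13865 to 30964 in Arntl-high kidneys and 16042 to 27986 in Arntl-low kidneys. Transcripts of attached tissue varied within both sets. The summed signal of 8 fat markers ran from 7990 to 27510 in Arntl-high kidneys and from 8242 to 26625 in Arntl-low kidneys. All 6 fat markers that passed the signal limit had a difference above 0, with a median of 0.95 and a highest of 2.03. None was called, and Adipoq had 83.7 to 3083 in Arntl-high kidneys and 3.4 to 2300 in Arntl-low kidneys. The summed signal of 7 liver markers ran from 9657 to 18181 in Arntl-high kidneys and from 8949 to 22996 in Arntl-low kidneys. The 7 adrenal markers summed to 536 to 821 in Arntl-high kidneys and 402 to 704 in Arntl-low kidneys. The 5 muscle markers, all below the signal limit, summed to 214 to 357 in Arntl-high kidneys and 147 to 298 in Arntl-low kidneys. The 8 immune markers summed to 7891 to 10914 in Arntl-high kidneys and 6540 to 9000 in Arntl-low kidneys. Of the 6 immune markers that passed the signal limit, 5 had a difference above 0, with a median of 0.17. The 3 blood markers summed to 2651 to 4864 in Arntl-high kidneys and 1906 to 5373 in Arntl-low kidneys. The part of kidney, immune or blood cell makeup, of attached tissue, or of mouse number, in any kidney difference was not tested. In whole tissue a change in cell number and a change per cell cannot be told apart.

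A test was available against a measure that the kidney arrays did not supply, the mean log2 Arntl of the same mouse's liver and brain. This measure ran from 8.41 to 10.21 and separated the mice in the same way, from 9.69 upward in Arntl-high mice and up to 9.07 in Arntl-low mice. Across 22519 kidney probe sets, 0 passed at adjusted p under 0.05 in limma (0.0%), while 1544, or 6.86%, had an unadjusted p under 0.05. Among genes by their standing probe set this share was 7.15%. It was 8 of 14 for the clock and output genes without Arntl, 6 of 11 for the rhythmic genes of many tissues, and 32 of 229, or 14%, for transport, hormone and metabolic genes. The measured kidney Arntl is left aside here. The lowest adjusted p was shared by Timd2 and a dimmer Dbp probe set. The kidney log2 signal of Timd2 changed by 1.19 ± 0.17 (SE) per log2 unit of Arntl (limma adjusted p = 0.0631). That Dbp probe set changed by −1.44 ± 0.20 (SE) per unit.

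The next genes were Gbp6, at 0.69 ± 0.12 (SE) per unit, Tspan4, at −0.69 ± 0.12, the brighter Dbp probe set, at −0.98 ± 0.17, and Per2, at −1.42 ± 0.25, all with a limma adjusted p of 0.218. Akr1d1, a steroid reductase gene, and Uroc1, of histidine breakdown, had slopes of 1.09 ± 0.20 and 0.93 ± 0.17 (SE) with the same adjusted p, although their sets overlapped. Slc16a1 had a slope of 0.59 ± 0.12 (SE) with an adjusted p of 0.318, the lowest among transport, hormone and metabolic genes. For Rhcg it was 0.365, for Glul 0.368 and for Gcgr 0.461. Lyrm4, of iron-sulfur cluster assembly, Asb13 and Tstd2 were among the 10 genes of positive slope with the lowest p, and Lfng, Nr1d2, Rtkn, Nt5dc2, Per3 and Ccdc85b among the 10 of negative slope. Without heavily mottled 1, 16 probe sets passed, including Timd2, at 1.01 ± 0.14 per unit, and the dimmer Dbp probe set, at −1.63 ± 0.18.

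The livers of the same mice gave a test in other arrays. Between Arntl-high and Arntl-low mice, 25 of 22519 liver probe sets passed at adjusted p under 0.05 in limma, 0.111%, with 15 higher (0.0666%) and 10 lower (0.0444%), while 1397, or 6.2%, had an unadjusted p under 0.05. The count was 8 to 11 when mottled 1, mottled 2, heavily mottled 1, yellow 1, yellow 2, pseudoagouti 1 or pseudoagouti 2 was left out, and 55 without slightly mottled 2. They included Dbp (−3.41 ± 0.31, SE, limma adjusted p = 0.000964), Per3 (−1.98 ± 0.22, 0.00373), Tef (−1.40 ± 0.18, 0.00965) and Nr1d2 (−1.23 ± 0.19, 0.0341). Coq10b fell (−1.34 ± 0.22, 0.0394), and Clpx, a mitochondrial chaperone gene, rose (0.88 ± 0.15, 0.0410). In kidney the Clpx difference was 0.24 ± 0.15 (SE) with overlap. Arntl had liver signals of 721 to 1301 in Arntl-high mice and 130 to 398 in Arntl-low mice.

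Of the 75 probe sets called in kidney, 66 were measured in liver and 5 passed there, those of Arntl, Dbp, Per3 and Nr1d2. None of the genes called in kidney outside the clock passed in liver. Slc16a1 differed by 0.41 ± 0.16 (SE, adjusted p = 0.729), Glul by −0.22 ± 0.20 (adjusted p = 0.906), Gcgr by 0.00 ± 0.17 (adjusted p = 0.999) and Timd2 by 0.12 ± 0.13 (adjusted p = 0.927). Gbp6 and Tspan4 kept the sets apart in liver, at 1.69 ± 0.38 (SE, adjusted p = 0.193) and −0.67 ± 0.16 (SE, adjusted p = 0.262). Usp2 differed by −2.40 ± 0.48 in liver (adjusted p = 0.111). The difference between tissues was not tested for these genes. Cry1 differed by 1.02 ± 0.31 in liver (adjusted p = 0.50), against −0.59 in kidney, where the rule had used the arrays, and this was not tested either.

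In brain 0 of 22519 probe sets passed in limma (0.0%), with 4518, or 20.1%, at an unadjusted p under 0.05. Arntl had brain signals of 910 to 1048 in Arntl-high mice and 411 to 819 in Arntl-low mice. Nr1d1, Nr1d2 and Ciart also kept the sets apart there, at −0.57, −0.36 and −0.39, with adjusted p of 0.130, 0.158 and 0.172 in limma. Per3, called lower in kidney, lay above 0 in brain, at 0.45 ± 0.20 (SE, limma adjusted p = 0.240) with overlap. Its other probe sets measured in brain ran from −0.34 to 0.27. Per2 differed by −0.36 in brain with overlap, and a dimmer Per2 probe set by 0.44. The brighter Dbp probe set differed by −0.20 in brain with overlap, and the dimmer kept the sets apart, at −1.04 ± 0.17 (SE, limma adjusted p = 0.0644). Where 1 mouse was left out, 163 brain probe sets passed without pseudoagouti 2, 16 without slightly mottled 2 and 4 without mottled 1.

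**Figure D5:**
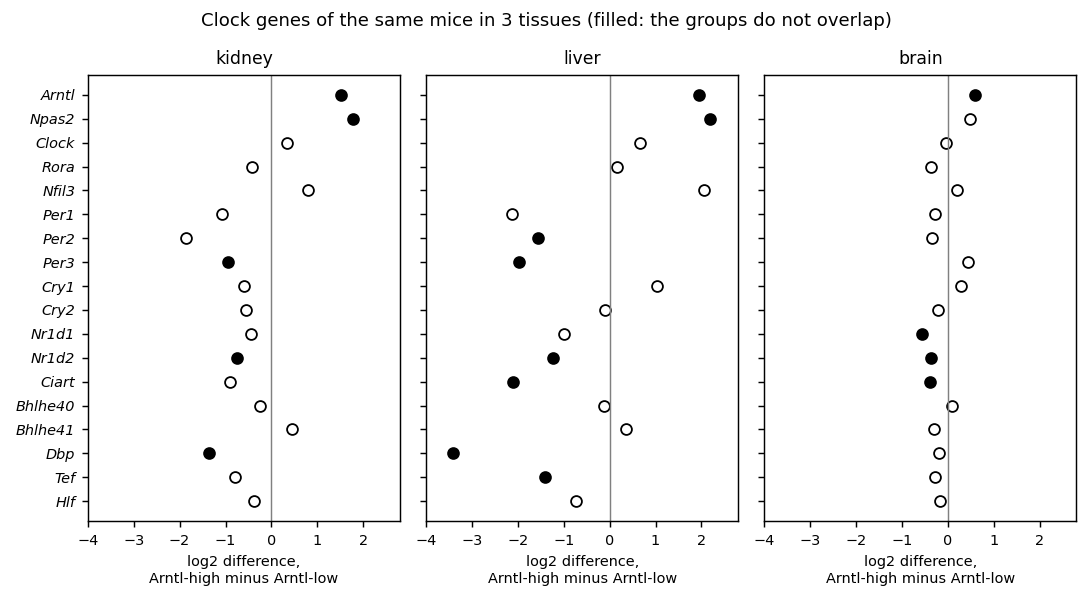
Log2 difference of Arntl-high minus Arntl-low mice for 18 clock genes in kidney, liver and brain of the same 10 mice; filled circles are genes whose sets do not overlap in that tissue (n = 4 and 6). Dbp, shown by its brighter probe set, was at −1.36 in kidney, −3.41 in liver and −0.20 in brain, and Per2, Ciart and Tef were apart in liver but not in kidney.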

How the data were processed

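Values are the authors' linear MAS5 intensity per probe set, per the submitters' processing notes, in the deposited table of all arrays; the version and the array batches are not given in the sources used here. Every array had a trimmed mean of 500.0 (2% trimmed at each end), so arrays had been scaled to a common target. There are no detection calls. Of 45101 probe sets, 64 controls were left out, and platform annotation gave 34945 exactly 1 symbol, 932 several and 9160 none. A class and number was read as 1 mouse across its 3 tissues, since the design names 10 mice. The linear models used limma 3.58.1 under R 4.3.3 (lmFit, eBayes with trend) over all probe sets of a tissue that passed the signal limit, with Benjamini-Hochberg adjustment. The number of arrays limits the precision, and p-values measure the spread between these mice.

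Named genes were all clock and output genes, in each other list those called and up to 4 more with the largest difference, the 12 largest called differences and the 10 lowest slope p in each direction. Members and lists were chosen with earlier results of these data known, and joint variation of clock genes across the tissues of a mouse was among those results, so the liver and slope results are no independent support for the grouping. The fits were tested on simulated data. Settings tried were offsets of 1 and 64, 2 other filters, quantile normalization, probe sets without s or x suffixes, mouse number as a block, each mouse left out, each mouse number alone, other minimum differences, and Arntl of 1 tissue as the slope measure.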

Additional observations from a re-analysis of the deposited data

Results flagged for a closer look

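For 136 named genes in both sets of kidneys, 272 sets of values were checked. In these, 17 values lay further from the rest of their set than the 95% limit of Dixon's test allows. Chance alone marks about 1 in 20 sets, and 17 of 272 is close to that share. The flags are therefore listed as values to look at and not as findings about a mouse. The gap is given as a share of the whole range of log2 values in the set. Heavily mottled 1 was the outlying Arntl-high kidney at 8 genes: Slc7a5 (gap 0.958), Abcc3 (0.946), Aqp1 (0.941), Mcm2 (0.930), Igfbp4 (0.919), Serpina6 (0.885), Cyp4a14 (0.874) and Stk39 (0.863). It was low at Slc7a5, Abcc3, Mcm2, Serpina6, Cyp4a14 and Stk39 and high at Aqp1 and Igfbp4. Mottled 1 was low at Emcn (0.929) and Aqp2 (0.879) and high at Dbp (0.895). Slightly mottled 2 was high at Zbtb16 (0.919) and Ciart (0.832). Among Arntl-low kidneys, yellow 1 was low at Ciart (0.721), heavily mottled 2 was high at Ces1f (0.698) and Prrc2a (0.647), and slightly mottled 1 was low at Hspb1 (0.666). The Mcm2 value of heavily mottled 1 was 869, against 1555 to 1624 in the other Arntl-high kidneys.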

How the results depend on the processing

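For the kidney difference of Arntl-high and Arntl-low mice, the 75 probe sets called became 243 with no filter, 152 with the mouse number as a replicate block, 10 with a minimum difference of 1 and 222 with none, 2013 among mice numbered 1 and 1769 among mice numbered 2, where fewer mice separate more easily, and 75 to 678 with 1 mouse left out. The other settings gave 60 to 92. The slope had 0 calls in limma, 1 with quantile normalization, 4 with the replicate block and 0 to 16 with 1 mouse left out. The 25 liver calls became 13 with no filter, 56 with the replicate block and 8 to 55 with 1 mouse left out. The 0 brain calls became 8 with an offset of 64, 2 with no filter, 2 with quantile normalization, 1 without s and x probe sets, 480 with the replicate block and 0 to 163 with 1 mouse left out. The cause was not tested. The labels do not say that a number pairs mice, so the number was not taken as a pairing. Deviations of kidneys from their set means correlated between −0.33 and 0.39 over 12 same-numbered pairs (mean 0.14). Over the 12 pairs of unlike number the mean was −0.15, so same-numbered kidneys were on average more alike. Both means come from deviations of the same kidneys and are not separate evidence. In Arntl-low kidneys the summed thick limb and distal tubule markers were 99860 to 106104 in mice numbered 1. They were 60174 to 70882 in mice numbered 2. In Arntl-high kidneys the numbers overlapped, at 67487 and 97416 against 73725 and 55171. What the number stands for is not given. Of the named called genes, none changed sign. In liver, Dbp, Per3 and Tef passed under every setting run, while Nr1d2, Coq10b and Clpx did not in 9, 10 and 10 settings. Dim genes such as Npas2 are limited by signal over background.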
